A study of Mus musculus with 564 samples.

Results

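Bone marrow-derived macrophages (BMDMs) were exposed for 1 h to lipopolysaccharide (LPS, 10 ng/mL), a bacterial ligand of the receptor TLR4, after 1 h of pre-treatment with the vehicle dimethyl sulfoxide (DMSO), and were compared with DMSO-treated BMDMs that received no stimulus (UT). The comparison rests on 4 of the 564 ChIP-seq libraries of the series, 2 of LPS 1 h and 2 of UT, which were chosen by their labels. Each library gives the level of histone H3 acetylated at lysine 27 (H3K27ac) at the same 59190 cis-regulatory elements (CREs), which are genomic intervals placed on accessible chromatin. All cells were wild type and came from male C57/BL6 mice aged 6 to 8 weeks, and the UT title names 0 h while its treatment label names 4 h without stimulus. The labels do not say whether the libraries of a group come from separate cultures, so p-values measure only the spread between libraries. For this comparison the spread was estimated over the 10 DMSO libraries of the LPS course.

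TLR4 signals through the adaptors MyD88 and TRIF to the IKK and MAP kinases and to TBK1, and these release or modify NF-kB, AP-1 and IRF transcription factors. In macrophages the enhancers that such factors can reach are largely laid out beforehand by lineage factors, among them PU.1 and C/EBP proteins. Acetyltransferases recruited to active enhancers and promoters deposit H3K27ac, so the mark follows regulatory activity that is gained or lost within minutes to hours of a stimulus. It does not measure transcription, and the gene nearest to a distal CRE, given below to locate it, need not be its target.

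The sequences below are examples of strongly responding CREs, chosen because they hold a motif, and of promoters chosen by gene name. They do not show how common the motifs are among responding CREs, for which shares are given further below. The first set is the central 300 bases of 3 intergenic CREs on the mm10 plus strand, namely the largest rise with an NF-kB motif (GGGANNTTC, chr19:29176503-29176802), the largest rise with an AP-1 motif (TGANTCA, chr10:19077976-19078275) and the largest fall with a PU.1 motif (GAGGAAGT, chr10:127318075-127318374). Capitals mark matches to these 3 motifs on either strand.
Jak2-near CRE, higher at 1 h: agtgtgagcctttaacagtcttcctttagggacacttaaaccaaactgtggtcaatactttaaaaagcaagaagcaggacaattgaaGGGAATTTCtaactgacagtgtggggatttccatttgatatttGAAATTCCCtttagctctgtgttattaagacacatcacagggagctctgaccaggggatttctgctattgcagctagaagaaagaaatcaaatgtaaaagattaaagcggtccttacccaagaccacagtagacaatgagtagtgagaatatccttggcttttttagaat
Tnfaip3-near CRE, higher at 1 h: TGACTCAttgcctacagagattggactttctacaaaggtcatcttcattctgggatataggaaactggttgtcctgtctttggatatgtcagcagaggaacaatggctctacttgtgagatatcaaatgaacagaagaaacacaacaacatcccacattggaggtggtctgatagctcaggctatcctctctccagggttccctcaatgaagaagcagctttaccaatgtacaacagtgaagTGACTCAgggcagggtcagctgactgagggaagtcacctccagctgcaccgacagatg
Arhgap9-near CRE, lower at 1 h: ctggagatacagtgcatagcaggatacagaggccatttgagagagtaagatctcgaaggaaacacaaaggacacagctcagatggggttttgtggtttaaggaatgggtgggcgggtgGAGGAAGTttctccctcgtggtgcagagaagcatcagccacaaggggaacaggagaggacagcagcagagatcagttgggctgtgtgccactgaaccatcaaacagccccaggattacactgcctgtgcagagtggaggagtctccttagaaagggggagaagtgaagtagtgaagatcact

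The second set is the 250 bases before the RefSeq start (GRCm38.p6) of 3 genes whose promoter CREs rose and of Trem2, whose promoter CRE fell, each on the strand of its gene. Nfkbia (chr12:55492648-55492897, minus strand) encodes the NF-kB inhibitor IkB alpha, Cxcl10 (chr5:92348890-92349139, minus strand) a chemokine, Ifnb1 (chr4:88522795-88523044, minus strand) interferon beta, and Trem2 (chr17:48346151-48346400, plus strand) a lipid-sensing receptor of macrophages. Capitals mark NF-kB, AP-1 and PU.1 matches and the interferon-stimulated response element (ISRE, GAAANNGAA).
Nfkbia promoter: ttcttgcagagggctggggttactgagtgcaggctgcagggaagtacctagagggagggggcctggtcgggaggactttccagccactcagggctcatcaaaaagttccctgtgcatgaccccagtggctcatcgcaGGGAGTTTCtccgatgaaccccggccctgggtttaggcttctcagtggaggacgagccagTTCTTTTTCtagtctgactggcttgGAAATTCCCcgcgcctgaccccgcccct
Cxcl10 promoter: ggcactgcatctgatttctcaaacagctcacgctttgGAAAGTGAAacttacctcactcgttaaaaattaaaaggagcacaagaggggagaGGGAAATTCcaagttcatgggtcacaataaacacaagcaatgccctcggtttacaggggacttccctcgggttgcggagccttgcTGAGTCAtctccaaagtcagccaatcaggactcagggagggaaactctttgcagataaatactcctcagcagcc
Ifnb1 promoter: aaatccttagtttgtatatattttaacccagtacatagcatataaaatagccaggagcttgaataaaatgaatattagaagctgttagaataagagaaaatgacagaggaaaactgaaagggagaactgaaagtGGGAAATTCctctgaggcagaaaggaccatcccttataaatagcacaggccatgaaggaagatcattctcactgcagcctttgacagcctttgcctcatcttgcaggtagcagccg
Trem2 promoter: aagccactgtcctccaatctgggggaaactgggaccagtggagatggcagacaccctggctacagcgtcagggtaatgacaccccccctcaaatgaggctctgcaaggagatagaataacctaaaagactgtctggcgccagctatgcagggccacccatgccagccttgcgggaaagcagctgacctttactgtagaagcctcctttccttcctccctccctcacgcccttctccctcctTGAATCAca
The NF-kB letters occur at 2 positions in the Nfkbia window and at 1 in those of Cxcl10 and Ifnb1, and in 3.17% of the same 250-base windows of 27025 RefSeq genes. The Trem2 window holds an AP-1 match, as do 6.87% of all windows, and no match to the NF-kB, ISRE or PU.1 letters. Since the genes were picked by name, these windows do not measure how often responding promoters hold the letters.

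The deposited values are read counts that the authors scaled between libraries and rounded, called scaled reads here. Scaled totals of the 4 libraries ranged from 5923684 to 6253278. From the spacing of its values, which shows what a single read is worth, 1 read stood for 1.716 and 1.444 scaled reads in the LPS 1 h libraries, while the UT libraries gave no estimate that could be relied on. Across CREs, the UT replicates correlated with r = 0.982 and the LPS 1 h replicates with r = 0.968, against 0.783 and 0.787 between same-numbered UT and LPS 1 h libraries. The log2 difference between replicates had an SD of 0.35 in UT and 0.44 in LPS 1 h, against 1.17 and 1.19 between the conditions. All 10 macrophage markers had a promoter CRE, with a summed level of 8927 and 8953 scaled reads in UT and 6556 and 6555 in LPS 1 h. Of 55 marker genes of 8 other cell types, 12 had a promoter CRE, with a summed level of 605 and 557 in UT and 545 and 530 in LPS 1 h, and none of the 8 T cell genes did. Of those 12, Camp, a neutrophil gene (5 and 4 to 57 and 45, log2 difference 2.55), and Pdgfrb, a stromal gene beside Csf1r (4 and 9 to 93 and 87, 3.08), were called higher and none lower, while 5 of the 10 macrophage markers were called lower. The 4 neutrophil promoter CREs, Camp among them, had a median log2 difference of -0.59. They summed to 293 and 261 scaled reads in UT and 207 and 190 in LPS 1 h. The 2 stromal promoter CREs had a median of 1.78. In bulk chromatin, a change in the share of cells of a type and a change of signal per cell cannot be told apart.

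Treatment with LPS for 1 h changed H3K27ac at 17522 CREs. Of the 59190 CREs tested, 9871 (16.7%) were higher and 7651 (12.9%) were lower than in UT. A call required a limma adjusted p below 0.01 and a log2 difference above 1 or below -1, both computed on the log2 of the value + 5. The median log2 difference was 1.75 among the higher and -1.53 among the lower CREs, against 0.11 over all CREs. Past an absolute log2 difference of 3 there were 1085 higher and 119 lower CREs, and past 4 there were 178 and 2. Because 5 is added to every value, differences at CREs with few reads are understated.

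**Figure D1:**
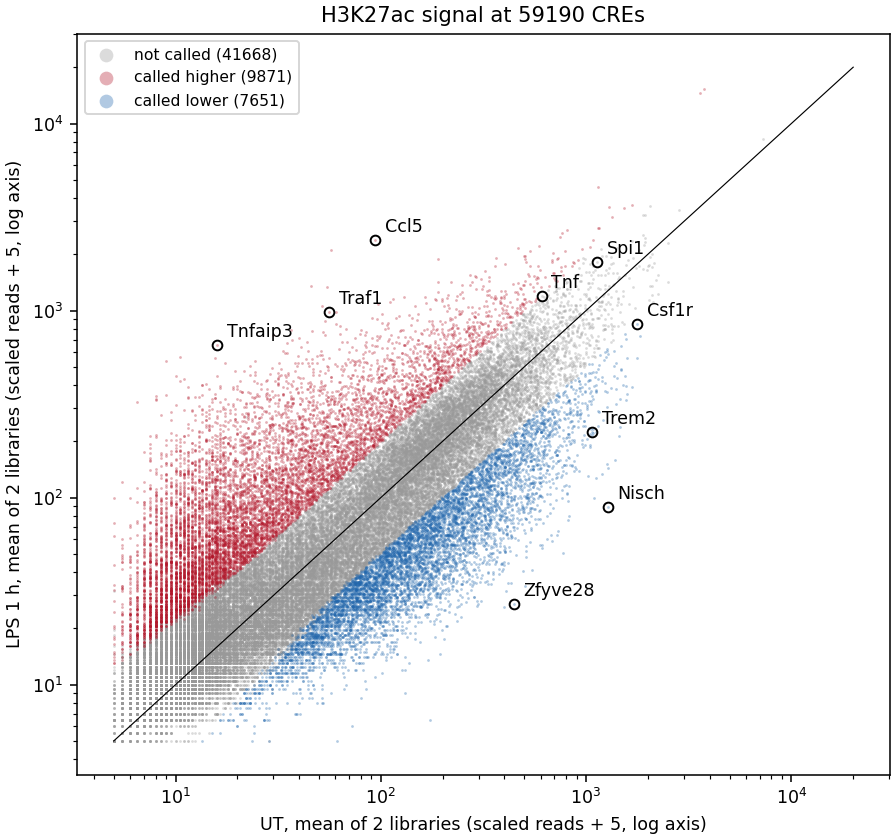
H3K27ac level of each of the 59190 CREs in UT (x axis) and after 1 h of LPS (y axis), as the mean of 2 libraries in scaled reads + 5 on log axes. Red and blue points are the 9871 CREs called higher and the 7651 called lower, the line marks equal levels, and circles mark 9 CREs described in the text by their nearest gene.

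The 12 largest gains arose outside promoters, at CREs that held at most 57 scaled reads in unstimulated cells. A CRE 62715 bp from the start of Tnfaip3, which encodes the NF-kB inhibitor A20, lies at chr10:19077004-19079246 and held 17 and 5 scaled reads in the UT libraries and 669 and 626 in the LPS 1 h libraries. Its log2 difference was 5.46 ± 0.20 (SE), with an adjusted p of 7.39e-19. It is the CRE whose AP-1 matches are printed above. An intergenic CRE 75176 bp from the start of Jak2, a kinase of cytokine receptors, at chr19:29175791-29177514, went from 1 and 2 to 355 and 283 scaled reads (5.63 ± 0.19). A further CRE nearest to Jak2, at chr19:29184543-29186564, went from 7 and 1 to 354 and 347. Within Ptges, the gene of an inducible prostaglandin E synthase, an intronic CRE at chr2:30912354-30914260 rose from 11 and 1 to 359 and 494 scaled reads (5.44 ± 0.25, adjusted p 6.96e-17). At each of these the lowest LPS 1 h library lay far above the highest UT library. That the groups did not overlap was a condition of the choice.

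The first rank was taken by a CRE 17343 bp from the start of Bcl2a1a, a member of an anti-apoptotic gene family with near-identical copies, at chr9:88937750-88941365. It went from 5 and 3 to 585 and 478 scaled reads (5.90 ± 0.20), and a CRE near Bcl2a1d from 5 and 1 to 391 and 298. Of the 51-base words in these CREs only 25.2% and 32.6% occur a single time in the genome, so reads from the copies may not be separable. The remaining gains of this rank were near Lad1, the gene of a basement membrane protein (7 and 4 to 549 and 569), near Itgb8, an integrin subunit (5 and 1 to 335 and 332), near Abcb5 on the same stretch of chromosome 12 (5 and 1 to 386 and 270), in an intron of Alpk2 (7 and 4 to 408 and 418) and at a pair of intergenic CREs nearest to A730009L09Rik on chromosome 16. The pair differed in level, from 3 and 7 to 446 and 439 scaled reads at chr16:84624270-84625834 and from 57 and 47 to 2186 and 1994 at chr16:84602912-84609422. Their log2 differences were 5.51 ± 0.18 and 5.20 ± 0.10.

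The 12 largest losses took CREs from between 102 and 1303 scaled reads in UT to 84 or fewer after LPS. In an intron of Zfyve28, at chr5:34237865-34239463, UT libraries held 418 and 459 scaled reads and LPS 1 h libraries 21 and 23 (-4.04 ± 0.28, adjusted p 5.74e-13). In an intron of Nisch, the gene of nischarin, an integrin-binding protein, the level fell from 1303 and 1238 to 84 and 84 (-3.84 ± 0.16), the highest starting level among these 12. A CRE 6373 bp from the start of Dusp6, which encodes a phosphatase of ERK kinases, at chr10:99267793-99271416, fell from 408 and 375 to 26 and 16 (-3.96 ± 0.26). These 3 CREs thus lost most of their acetylation in both libraries. Other losses were in introns of Slco2b1, an organic anion transporter (776 and 749 to 38 and 53), of Zdhhc14, a palmitoyltransferase (508 and 487 to 27 and 30), and of Slc45a4 (223 and 174 to 5 and 20), near Arhgap9 (151 and 102 to 5 and 3), near Nlrp1b, an inflammasome sensor (208 and 172 to 7 and 12), and at 2 neighbouring CREs whose nearest start was that of the chemokine gene Cxcl12 (554 and 522 to 34 and 38, and 169 and 159 to 10 and 7). Another 2 of the 12, ranks 1 and 10, lay in the immunoglobulin heavy chain region on chromosome 12. The former, over the segment Ighv1-53 at chr12:115157538-115159278, went from 186 and 150 to 2 and 1 scaled reads (-4.73 ± 0.40), with 33.2% of its 51-base words occurring a single time in the genome, and the other from 395 and 406 to 34 and 19 (68.1%).

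**Figure D2:**
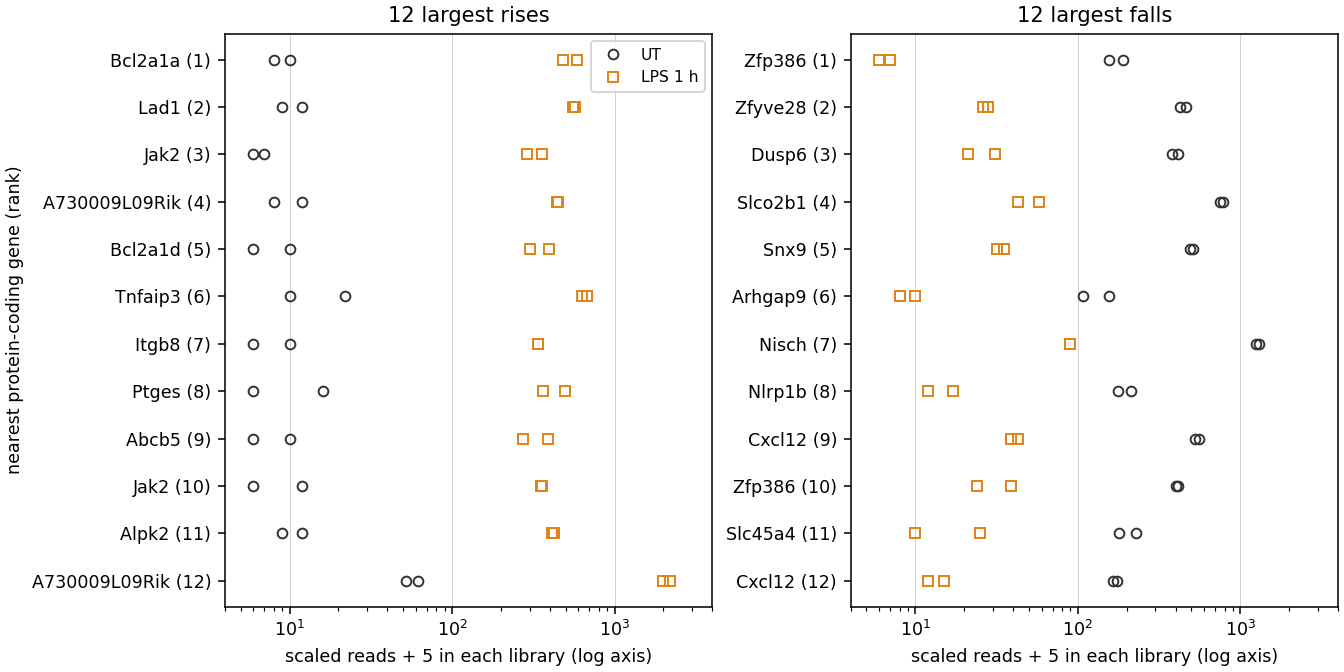
Scaled reads + 5 (log axis) in each UT library (circles) and each LPS 1 h library (squares) at the 12 CREs with the largest rise and the 12 with the largest fall, named by nearest protein-coding gene and rank. That circles and squares are separated in each row was a condition of the choice of these CREs. UT lies at 57 scaled reads or fewer in the left panel and LPS 1 h at 84 or fewer in the right panel.

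Promoters changed less often than the rest of the CREs. Of 11454 promoter CREs, which hold or lie within 500 bp of a protein-coding start, 7.75% were higher and 7.11% lower. Of 34586 distal CREs up to 50 kb from a start 17.6% were higher and 14.5% lower, and of 13150 CREs beyond 50 kb 22% were higher and 13.9% lower. The median distance to the nearest start was 23227 bp for higher, 18400 bp for lower and 13228 bp for uncalled CREs. Direction also went with the resting level. With CREs ranked by their mean in UT libraries of inhibitor-treated cells, which do not enter this comparison, the lowest of 5 equal groups had 21.8% higher and 0.152% lower and the highest had 6.45% higher and 27% lower. A CRE near the floor cannot fall by the required amount, so the low share of losses in the lowest group follows in part from the threshold.

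Motif content differed between the directions, given here as a description over the central 300 bp of CREs outside promoters, searched on both strands. The AP-1 letters TGANTCA were in 30.7% of higher, 17.4% of lower and 22.9% of uncalled CREs. The NF-kB letters GGGANNTTC were in 9.81%, 3.36% and 4.82%, and the ISRE letters GAAANNGAA in 14.8%, 11.6% and 12%. Those of C/EBP (TTNCNNAA) were in 59%, 54.3% and 53.7%, and those of STAT factors (TTCNNNGAA) in 12.1%, 8.89% and 9.83%. The order was turned for PU.1, a lineage factor of macrophages, whose letters GAGGAAGT were in 7.2% of higher, 13.5% of lower and 10.7% of uncalled CREs. The CACGTG box bound by MITF and TFE factors was in 3.57%, 6.26% and 5.03%. RUNX letters (TGTGGT) differed little, with 26.8%, 28.9% and 27.9%, as did the CArG box of SRF with 1.74%, 1.68% and 1.57%. Among the 615 CREs outside promoters with both AP-1 and NF-kB letters, 41% were higher and 6.02% lower, against 18.8% and 14.3% of all 47736 CREs outside promoters and 16.3% and 15.8% of the 34437 with neither. The median log2 difference of these groups was 0.84, 0.10 and 0.01. GC content moved with direction too, with a median of 46% in higher, 48.3% in lower and 49% in uncalled CREs, and its part in the motif shares was not tested.

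Many called CREs stood side by side. How many would do so at call shares of 16.7% and 12.9% alone was not tested. Joining neighbours called the same way with no other CRE between them and gaps of at most 50 kb gave 1849 runs of higher CREs, holding 6374 CREs, and 1532 runs of lower CREs, holding 4469. By nearest start within 100 kb, Tnfaip3 and Cd47, the gene of a surface ligand that restrains phagocytosis, had the most higher CREs. Of 27 CREs nearest to Tnfaip3, 24 were higher and none was lower, and the 24 summed to 1567 and 1433 scaled reads in UT and 11266 and 10431 in LPS 1 h. Of 28 nearest to Cd47, 24 were higher, with sums of 1909 and 1938 in UT and 7764 and 7310 in LPS 1 h. At both loci the CREs moved in the same direction over most of their length. Lpp, the gene of a protein of focal adhesions, followed with 22 of 29, Nfkbiz, the gene of the nuclear inhibitor-like protein IkB zeta, with 19 of 22, Edn1, the gene of endothelin-1, with 17 of 19, and Dock10, the gene of a guanine nucleotide exchange factor, with 17 of 28. The promoter CRE did not always share the change of the locus, with log2 differences of 2.06 at Tnfaip3, 1.83 at Edn1 and 1.48 at Nfkbiz but 0.79 at Cd47, 0.14 at Dock10 and -0.39 at Lpp.

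The most lower CREs were nearest to Zfp36l2, which encodes a protein of mRNA decay. Of its 29 CREs 22 were lower and none higher, and the 22 summed to 9529 and 9369 scaled reads in UT and 2042 and 2067 in LPS 1 h. Arhgap25, the gene of a Rac GTPase-activating protein, had 12 of 14 lower with a median of -2.35, Tbc1d9 12 of 15, Lhfpl2 12 of 23, the sialyltransferase gene St6gal1 11 of 14, and Mef2a, which encodes a transcription factor, 11 of 16 with 1 higher. The sum over the 11 lower Mef2a CREs fell from 4942 and 4924 to 852 and 789. The sums by gene cover only CREs called in the direction given, so their direction was set by the calls. The longest run of gains by number, 23 CREs over 111601 bp on chromosome 2, covered Il1a and Il1b, and had a median log2 difference of 3.47. It was matched in number by 23 CREs near Tnfaip3, with a median of 2.77. Runs of 19 lay near Lpp (median 1.87) and near Abcb5 and Itgb8 (3.68), and runs of 18 near Cited2, Txlnb and Heca (3.20) and near A730009L09Rik and Mrpl39 (4.35).

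Gene lists were read at promoter CREs, of which 7.75% were higher and 7.11% lower over all genes, with a median log2 difference of 0.12. Among NF-kB subunits and feedback inhibitors, 15 of 20 were higher and none lower (median 1.45). The adaptor gene Traf1, at a CRE over an internal start at chr2:34956206-34959623, went from 46 and 56 to 934 and 1025 scaled reads (4.14 ± 0.12, adjusted p 8.81e-21). The promoter of Tnfaip3 went from 204 and 219 to 963 and 841 (2.06 ± 0.10), that of Nfkbie, which encodes IkB epsilon, from 243 and 276 to 1035 and 1055 (1.99 ± 0.10), and the CRE shared by Nfkbib and Sirt2 from 209 and 215 to 764 and 818. The subunit genes Nfkb1 (1.84), Nfkb2 (1.58), Relb (1.55) and Rel (1.48) rose, while Rela, which encodes the subunit p65, had a difference of 0.72. The promoter of Nfkbia, printed above, went from 758 and 816 to 1754 and 1692 (1.13 ± 0.08), and its difference of 1.00 after quantile normalization was no longer past the threshold.

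Of 23 cytokine promoter CREs 16 were higher and none lower (median 1.38). That of Il12b, the gene of the IL-12 and IL-23 subunit p40, went from 12 and 12 to 232 and 212 scaled reads (3.74 ± 0.23). The Il27 promoter stood at a higher level, with 185 and 185 in UT and 1890 and 1860 in LPS 1 h (3.31 ± 0.09, adjusted p 2.19e-21). Il1a went from 24 and 29 to 408 and 405 (3.71 ± 0.15), Il1b from 135 and 102 to 774 and 775 (2.67 ± 0.13), Il6 from 30 and 31 to 271 and 257 (2.92 ± 0.15), and the growth factor gene Csf2 from 6 and 2 to 53 and 79 (2.99 ± 0.36). The tumour necrosis factor gene Tnf was acetylated before the stimulus, with 602 and 601 scaled reads in UT and 1253 and 1123 after 1 h. Its log2 difference of 0.97 ± 0.10 had an adjusted p of 3.22e-09 and lay just under the log2 threshold.

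Of 16 chemokine promoter CREs 10 were higher and none lower (median 1.17). Ccl5, which encodes RANTES, had the largest difference of all 12 lists, from 98 and 80 to 2418 and 2324 scaled reads (4.67 ± 0.10, adjusted p 4.78e-24). Cxcl10 went from 60 and 56 to 870 and 766 (3.71 ± 0.12), and Ccl22, Cxcl1 and Cxcl2 had differences of 2.59, 2.49 and 1.96. Ccl3, whose CRE also holds the start of Rpl9-ps1, held 566 and 512 in UT and 781 and 634 in LPS 1 h (0.38 ± 0.11) and was not called. Like Tnf, it held over 500 scaled reads before the stimulus, as did the called promoters of Nfkbia, Birc3 (1.42) and Il15 (1.11). Whether the resting level bears on the calls at promoters was not tested.

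Among type I interferon and interferon-stimulated genes, 13 of 26 promoter CREs were higher and none lower (median 0.99). Ifnb1 went from 31 and 30 to 472 and 423 scaled reads (3.67 ± 0.17, adjusted p 7.49e-17). The CRE at the start of Ifit1, an antiviral effector, and Ifit1bl2 went from 109 and 84 to 487 and 460 (2.25 ± 0.15), and that of the GTPase gene Gbp5 from 91 and 116 to 432 and 451 (2.05 ± 0.14). Other transcription factor genes of the pathway had smaller differences, with 0.95 at Irf1, 0.83 at Stat2, 0.72 at Irf7 and 0.62 at Irf9, none of them called.

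The immediate early transcription factors, which many stimuli induce within minutes, split at 1 h into 4 higher and 5 lower of 24 (median 0.44). Maff went from 95 and 82 to 355 and 405 (2.04 ± 0.14), Egr2 from 211 and 219 to 702 and 785 (1.76 ± 0.13), and Fosl1 and Nr4a1 by 1.53 and 1.06. In contrast, Fos, which encodes an AP-1 subunit, fell from 580 and 638 to 256 and 256 (-1.23 ± 0.12, adjusted p 1.72e-09). Hes1 went from 129 and 120 to 26 and 36 (-1.86 ± 0.30), and Klf2, Fosb and Jun had differences of -1.39, -1.05 and -1.03. Egr1, another early gene, had overlapping values, with 106 and 89 in UT and 91 and 100 in LPS 1 h (-0.02 ± 0.22, adjusted p 0.94).

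MAPK phosphatases and feedback regulators had 7 higher and 1 lower of 26 (median 0.70). The promoter of the phosphatase gene Dusp2 went from 100 and 93 to 968 and 928 (3.23 ± 0.11), and those of Cish and Socs3, both suppressors of cytokine signalling, from 68 and 73 to 633 and 582 (3.02 ± 0.13) and from 269 and 222 to 1134 and 1181 (2.22 ± 0.10). Gadd45b, a stress-response gene, rose by 1.97 ± 0.08. Dusp6 was the lower member, from 955 and 1096 to 360 and 402 (-1.42), as was the CRE 6373 bp from its start. Components of TLR4 signalling itself had 5 higher and 1 lower of 30 (median 0.52), with Ikbkb (1.59 ± 0.12), Ikbke (1.40 ± 0.08) and Tab2 (1.16 ± 0.12), which code for kinases and an adaptor of the pathway, among the higher. The promoter of the kinase gene Map2k6 fell from 51 and 43 to 21 and 16 (-1.15 ± 0.34, adjusted p 0.00644), a call lost when any 1 of the 4 libraries was left out. The receptor gene Tlr4 held 867 and 853 in UT and 472 and 409 in LPS 1 h (-0.96), short of the threshold.

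Inflammatory effector enzymes had 13 higher and 1 lower of 21 (median 1.24). Nos2, the inducible nitric oxide synthase, went from 11 and 9 to 106 and 91 (2.79 ± 0.23), Slc7a2, an arginine transporter, from 14 and 14 to 86 and 103 (2.38 ± 0.22), tissue factor (F3) from 23 and 24 to 154 and 132 (2.37 ± 0.20), and the mitochondrial superoxide dismutase gene Sod2 from 151 and 142 to 673 and 708 (2.20 ± 0.11). Ptges, whose intron held a CRE among the largest gains, had no promoter CRE. The lower member was Thbs1, the gene of thrombospondin 1, from 150 and 157 to 34 and 33 (-2.04).

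Of 30 promoter CREs of macrophage lineage transcription factors and surface markers 11 were lower, 1 was higher and 18 were not called (median -0.85). Trem2 fell from 1072 and 1061 to 197 and 243 scaled reads (-2.26 ± 0.16, adjusted p 1.06e-12), Mertk, a receptor for apoptotic cells, from 218 and 234 to 62 and 55 (-1.86 ± 0.23), the mannose receptor gene Mrc1 from 285 and 279 to 81 and 79 (-1.76 ± 0.22), and the transcription factor gene Bhlhe41 from 432 and 425 to 125 and 124 (-1.74 ± 0.17). Csf1r, the receptor for the growth factor that maintains macrophages, fell from 1794 and 1744 to 822 and 870 (-1.06 ± 0.09, adjusted p 3.05e-11). Other members called lower included Foxp1 (-1.56), Ccr2 (-1.47), Cebpa (-1.21), Cd68, whose CRE also holds the start of Mpdu1 (-1.14), and Lyz2 (-1.07). Spi1, which encodes PU.1, did not follow, with 1105 and 1150 in UT and 1835 and 1808 in LPS 1 h (0.69 ± 0.08, adjusted p 1.17e-08), and the scavenger receptor gene Msr1 was the higher member (1.14). The CREs outside promoters with a gene of this list nearest had 53 higher and 65 lower of 302 and a median of -0.12. Over all genes, such CREs had 7553 higher and 5985 lower of 41616 and a median of 0.09. The summed level of the 10 macrophage markers, 5 of which are also called in this list, fell over the same libraries as given above, and its part in these counts was not tested.

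Lysosome and lipid handling genes had 6 lower and none higher of 23 promoter CREs (median -0.60). Apoe, which encodes a lipid-carrying apolipoprotein, fell from 763 and 771 to 139 and 130 (-2.47 ± 0.16, adjusted p 1.37e-13), Gpnmb, a lysosomal glycoprotein gene, from 440 and 476 to 103 and 146 (-1.86 ± 0.17), Cd63 from 85 and 89 to 24 and 33, and the acid lipase gene Lipa by 1.28 on the log2 scale. Cell cycle genes had 4 lower and 1 higher of 24 (median -0.56). The lower were Ccnd1 (357 and 384 to 130 and 124), E2f2 (558 and 586 to 209 and 234), Cdk1 (-1.27, but -0.99 and not called without LPS 1 h replicate 1) and Ccnb1 (-1.10), and the higher was Ccnd2, another D-type cyclin gene, from 172 and 137 to 446 and 478 (1.56 ± 0.14). Of 30 ribosomal protein promoters, 1 was called, Rpl35 at 1.04, and their median was 0.43. With libraries set to equal totals Rpl35 stood at 0.99 and was not called. No list median changed sign when libraries were set to equal totals or quantile normalized.

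**Figure D3:**
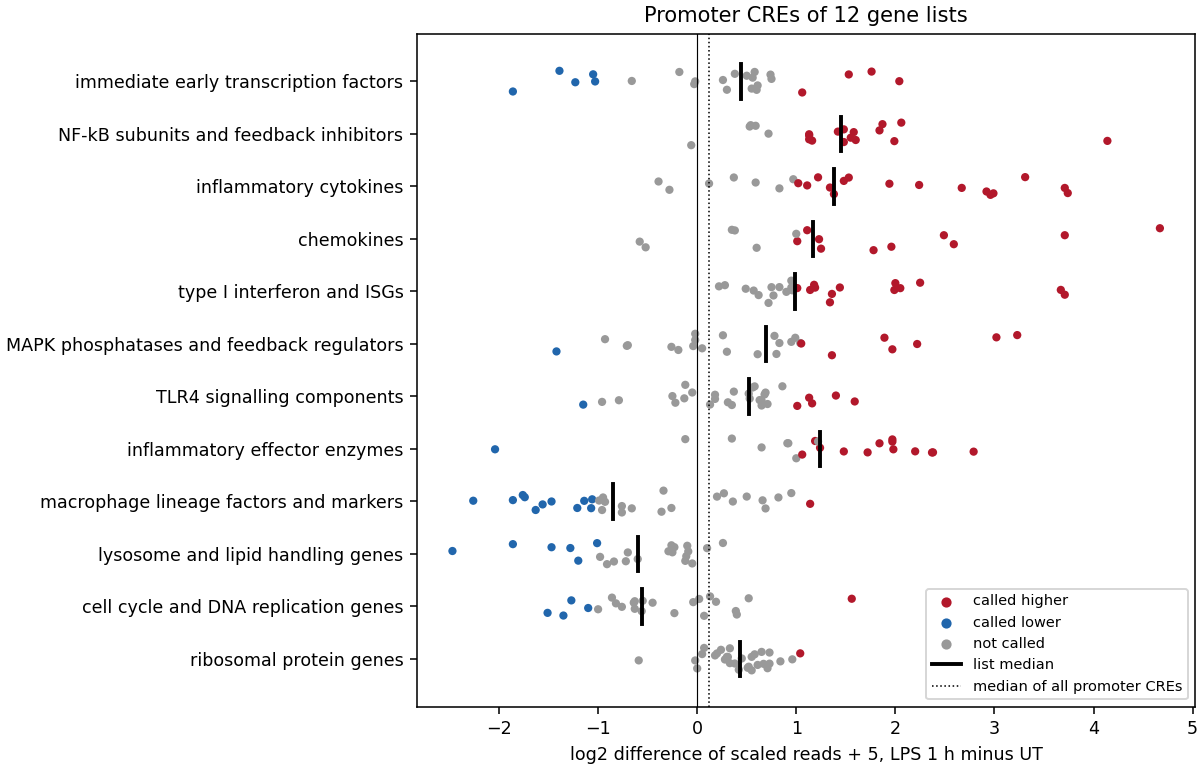
Log2 difference, LPS 1 h minus UT, of scaled reads + 5 at promoter CREs, 1 point per CRE, for the 12 gene lists; red and blue points are called higher and lower, bars are list medians and the dotted line is the median of all promoter CREs (0.12). NF-kB, cytokine and chemokine lists lean right with medians of 1.45, 1.38 and 1.17, and the macrophage lineage list leans left with -0.85.

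How far the response had come by 1 h was asked by testing LPS 1 h directly against 30 min and 2 h of LPS. These differences do not contain UT values, although the UT libraries enter the estimate of the spread. Between 30 min and 1 h, 2995 CREs (5.06%) rose and 1924 (3.25%) fell, and between 1 h and 2 h 2909 (4.91%) rose and 2259 (3.82%) fell. The steps share the LPS 1 h libraries. With only the 4 libraries of each step in the fit, the counts were 2076 and 1530, then 2652 and 1748. Against UT, the CREs called higher at 1 h had median log2 differences of 1.34 at 30 min, 1.75 at 1 h, 1.80 at 2 h and 1.63 at 4 h, and those called lower had -1.23, -1.53, -1.71 and -1.39. These values share the UT libraries, and the 1 h value was used in the call. Without replicate 2 of LPS 30 min, the number that fell from 30 min to 1 h was 1207.

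The largest gains between 30 min and 1 h were mostly at CREs with few reads at 30 min. An intergenic CRE 15054 bp from the start of Sec24b, at chr3:130075131-130076792, held 6 and 8 scaled reads in UT, 5 and 18 at 30 min, 208 and 176 at 1 h and 424 and 407 at 2 h. Its step from 30 min to 1 h was 3.69 ± 0.27 (adjusted p 5.04e-11). A CRE in an intron of Phf21a went from 3 and 3 at 30 min to 86 and 111 at 1 h, and a CRE near Lipg, the gene of endothelial lipase, from 8 and 16 to 196 and 207. The Itgb8-near CRE described above held 25 and 30 at 30 min against 335 and 332 at 1 h and 790 and 718 at 2 h. The CRE 12224 bp from the start of Dusp12, at chr1:170896215-170899314, took a course of its own, with 508 and 430 in UT, 86 and 84 at 30 min, 1035 and 1042 at 1 h and 1704 and 1563 at 2 h. It thus stood below UT at 30 min in both libraries and above UT at 1 h in both (1.14 ± 0.11). The promoter CREs of Nos2 (13 and 19 at 30 min, step of 2.31), Ifit1 (107 and 148, 1.87) and Ccnd2 (155 and 198, 1.37) rose in the same step.

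Early peaks had passed by 1 h. Egr1 held 330 and 373 scaled reads at 30 min, above its 106 and 89 in UT, and the fall to 91 and 100 at 1 h was a step of -1.83 ± 0.22 (adjusted p 3.85e-07). Fosb (315 and 267 at 30 min, 64 and 81 at 1 h) and Nr4a1 (315 and 427, 172 and 155) fell as well, and Maff fell from 772 and 802 to 355 and 405 while it stayed above UT. Egr2 kept its level to 1 h (754 and 759 at 30 min) and lost it by 2 h (221 and 231, -1.69 ± 0.13, adjusted p 9.38e-11). An intergenic CRE nearest to Usp6nl, at chr2:6477718-6479296, kept its UT level of 257 and 248 at 30 min (221 and 270) and fell to 39 and 33 at 1 h (-2.61 ± 0.22). The other large falls from 30 min to 1 h were at CREs low in UT, in introns of Msra (127 and 159 at 30 min, 10 and 20 at 1 h) and Acer1 (79 and 69, 5 and 7), and near Pdia4, where the 30 min libraries disagreed at 168 and 18 and 15.9% of the 51-base words occur a single time.

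After 1 h, the largest gains were at CREs that held at most 77 scaled reads at 1 h. A CRE 8414 bp from the start of Ifi209, an interferon-inducible gene, held 22 and 46 scaled reads at 1 h and 493 and 523 at 2 h (3.79 ± 0.31, adjusted p 2.70e-10), and a CRE 8215 bp from the start of Slfn1 77 and 32 at 1 h and 721 and 689 at 2 h (3.69 ± 0.26). The intergenic CRE nearest to Gm11172, at chr16:10818164-10819783, went from 2 and 4 to 179 and 145, and the intronic CRE of Sctr from 29 and 29 to 443 and 357. Foxp1, a lineage factor gene, was still falling, from 840 and 949 in UT to 305 and 296 at 1 h and 33 and 34 at 2 h (-2.99 ± 0.16 from 1 h to 2 h). An intronic CRE of Msra at chr14:64367551-64369285 went from 158 and 165 at 1 h to 24 and 22 at 2 h after 645 and 769 at 30 min. CREs near H60c and Pdia4 also fell after 1 h, and 35% and 3.04% of their 51-base words occur a single time.

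A peak at 1 h, in the sense of being called above UT, 30 min and 2 h, was found at 46 of the 59190 CREs, and a trough at 14. The calls behind a peak or trough share the LPS 1 h libraries and are not independent. Ordered by the smallest of the 3 differences, the first peak was in an intron of Il33, the gene of an alarmin cytokine, at chr19:29941763-29943462. It held 1 and 3 scaled reads in UT, 5 and 12 at 30 min, 112 and 121 at 1 h, 30 and 26 at 2 h and 17 and 12 at 4 h. An intronic CRE of Lif, the gene of leukaemia inhibitory factor, held 2 and 4 in UT, 23 and 15 at 30 min, 69 and 66 at 1 h and 8 and 9 at 2 h. The others of the first 6 lay in introns of Fam83g, D10Jhu81e, Pcdh7 and Slc13a3, with between 46 and 161 scaled reads at 1 h. At all 6, both LPS 1 h libraries lay above every library of the other times. Calls above UT, 30 min and 2 h were a condition of the choice, so only the 4 h values were not used in it. Among the troughs, the CRE 14065 bp from the start of Arhgap25 held 99 and 82 in UT, 71 and 91 at 30 min, 22 and 20 at 1 h and 65 and 75 at 2 h, while that near Gm32687 was listed at 0 in both LPS 1 h libraries with 6.01% of its words occurring a single time. The other 4, nearest to Tex44, Gm14226, Dad1 and Ercc1, held at most 12 scaled reads at 1 h, and 99.2%, 10.2%, 30.5% and 80.9% of their words occur a single time. The falls from UT at Tex44, Gm14226 and Ercc1 lost their call when single libraries were left out, at -0.77 without LPS 1 h replicate 2 and -0.99 without UT replicate 1 for Tex44, -0.85 and -1.22 without replicate 1 of LPS 1 h or of UT for Gm14226, and -1.17 and -1.10 without the same libraries for Ercc1.

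**Figure D4:**
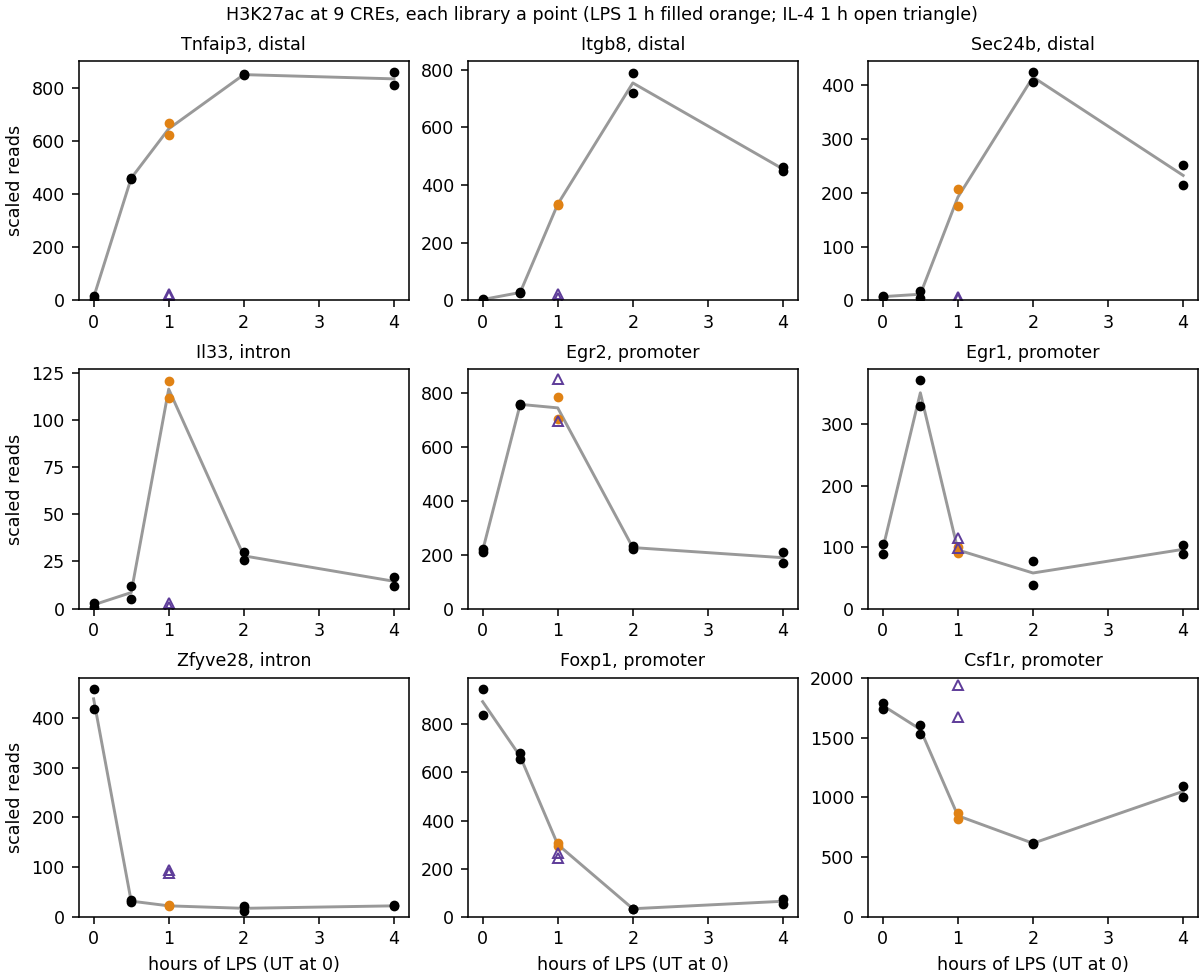
Scaled reads of 9 CREs in each DMSO library against hours of LPS, with UT at 0; orange points are LPS 1 h, open triangles IL-4 1 h and the line joins group means. The Il33 intron peaks at 112 and 121 at 1 h, Egr1 is back at 91 and 100 by then, Sec24b and Itgb8 are still climbing and Foxp1 is still falling.

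The response was compared with that to interleukin 4 (IL-4, 10 ng/mL), a cytokine that drives macrophages to an alternative state through STAT6, in DMSO-treated cells at the same time. LPS 1 h lay above IL-4 1 h at 9422 CREs (15.9%) and below at 8472 (14.3%), in a fit of all 18 DMSO libraries. At promoter CREs these shares were 6% and 8.48%. Of the NF-kB list 11 of 20 promoter CREs were higher after LPS and none lower, of cytokines 16 and 1 of 23, and of macrophage lineage genes 3 and 10 of 30. The Jak2-near CRE at chr19:29175791-29177514 held 5 and 3 scaled reads after IL-4 against 355 and 283 after LPS (5.17), and an intronic CRE of Ptges at chr2:30924331-30926279 held 9 and 9 against 525 and 509 (5.22). Near Tor1b the values were 2 and 0 after IL-4 and 230 and 220 after LPS. On the other side, a CRE in an intron of Clec16a, 82105 bp from the start of Socs1, a suppressor of cytokine signalling, held 1000 and 1095 after IL-4 and 31 and 38 after LPS (-4.74 ± 0.17, adjusted p 6.66e-23), close to its 30 and 20 in UT. Its neighbour held 385 and 404 after IL-4 and 9 and 12 after LPS. Larger differences in either direction were at CREs near Gm21887, Ang6 and Ang5, of whose 51-base words 0.456%, 31.4% and 29.7% occur a single time.

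At some CREs the level after IL-4 was also above UT. Egr2 held 852 and 694 scaled reads after IL-4 and 702 and 785 after LPS against 211 and 219 in UT, and LPS and IL-4 had a difference of -0.05 ± 0.11 (adjusted p 0.75). Cish stood at 402 and 395 after IL-4 and 633 and 582 after LPS, both above the 68 and 73 of UT. Slc7a2 held 200 and 174 after IL-4 and 86 and 103 after LPS (-0.95, adjusted p 3.65e-05), short of the log2 threshold. Trem2 held 1303 and 1216 after IL-4 and Mrc1 491 and 461, whereas after LPS they held 197 and 243, and 81 and 79. Some CREs that fell after LPS were also lower after IL-4 than in UT. Foxp1 held 244 and 267 after IL-4 and 305 and 296 after LPS, against 840 and 949 in UT. At Foxp1 LPS and IL-4 had a difference of 0.23 ± 0.15 (adjusted p 0.214). The intronic CREs of Zfyve28 and Nisch held 89 and 95, and 539 and 507, after IL-4, between their UT and LPS levels. The trough near Arhgap25 held 27 and 30 after IL-4 and 22 and 20 after LPS.

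The same contrast was made in 135 libraries of BMDMs pre-treated with 1 of 57 kinase inhibitors, which share no library with the DMSO comparison. Across inhibitors 35.7% of all CREs were higher and 30.4% lower at an adjusted p under 0.01. Of the 9871 CREs called higher in DMSO cells, 9737 (98.6%) were higher across inhibitors and none lower, and of the 7651 called lower 7497 (98%) were lower and 1 higher, at an intergenic position on chromosome Y nearest to Gm21860 where 49.9% of the 51-base words occur a single time. Past the log2 threshold of 1 as well, the share was 49.2% (4853) of the higher and 54.9% (4197) of the lower CREs, and 4902 and 4399 of all CREs were called by both thresholds. Across CREs the differences correlated with r = 0.935, a description since CREs are not replicates. The size was smaller with inhibitors, with medians of 0.99 at the higher and -1.05 at the lower CREs against 1.75 and -1.53. How far strong CREs stood above weak ones was also smaller with inhibitors than in DMSO cells. The ratio of the median level in the top 10% to that in the bottom 10% of CREs was 94.8 in DMSO UT and between 7.02 and 47.8 in UT libraries of the inhibitors, and its part in the smaller size was not tested.

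Of the 12 largest rises 11 were higher in all 57 inhibitors and that near Abcb5 in 56, and of the 12 largest falls 11 were lower in all 57 and that over Ighv1-53 in 55. The Tnfaip3-near CRE had a mean difference of 3.44 across inhibitors and the intronic CRE of Zfyve28 one of -2.93. Trem2, Apoe and Csf1r were lower in 57 of 57, Fos in 57 and Ccl5, Il6, Il1b and Traf1 higher in 57. By inhibitor, the median difference at CREs called higher in DMSO cells lay between 0.24 and 1.53, and at those called lower between -1.52 and -0.62. Talmapimod had the smallest median at the higher CREs and the one farthest from 0 at the lower CREs. It also had the lowest contrast in its UT library, 7.02. Most inhibitors had 1 library per group, so these values carry no replicate error.

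**Figure D5:**
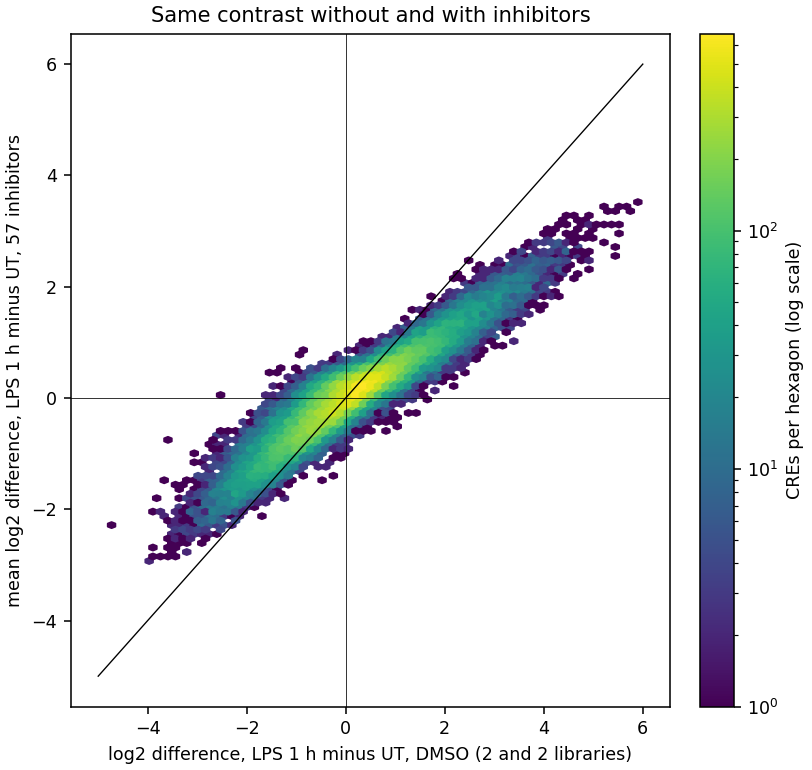
Log2 difference, LPS 1 h minus UT, in DMSO cells (x axis, 2 libraries each) against the mean difference over 57 kinase inhibitors (y axis) for 59190 CREs, with colour for the number of CREs per hexagon on a log scale and a line of equal values. Points follow the diagonal in sign (r = 0.935) and lie closer to 0 on the y axis at both ends.

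Repeated sequence held the highest values of the LPS 1 h libraries. CREs over satellite repeats at the start of chromosome 9, at chr9:3000048-3009316 and chr9:3021693-3028368, held 4687 and 2775, and 4505 and 2647, scaled reads in UT and 19965 and 10712, and 19491 and 9670, in LPS 1 h. In each condition the first library held over 1.5 times the level of the other, and 16.5% and 20.8% of the 51-base words of these CREs occur a single time. The log2 differences of 2.02 ± 0.22 and 1.99 ± 0.22 passed the test, but both were higher in only 37 of 57 inhibitors.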

How the data were processed

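H3K27ac ChIP-seq of BMDMs was deposited as a single table of 59190 CREs by libraries, of which 4 libraries make the comparison described, 10 DMSO libraries of the LPS course (2 per group) enter its fit, 8 IL-4 libraries extend it to 18, and 135 libraries of 57 kinase inhibitors give the same contrast apart. Per the methods of the study, the authors trimmed reads to 51 bases, aligned them to mm10 with ShortStack, which can place reads that match several positions, counted them in CREs and scaled libraries on peaks judged invariant. The labels also list Bowtie and SAMtools. The deposited values are thus a score, a scaled read count rounded to whole numbers by the authors, and not raw counts, so no count model was used. The scaled totals do not show depth, and the precision of a group of 2 libraries is limited by its replicates.

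Values were transformed to log2(value + 5) and fitted with limma 3.58.1 (R 4.3.3) with a mean trend over all CREs and Benjamini-Hochberg adjustment, one coefficient per group. Calls needed an adjusted p below 0.01 and an absolute log2 difference above 1, and every SE is from this fit. Inhibitor differences were formed per compound, then tested against 0 over compounds. CREs were annotated with GENCODE M21 and RefSeq (GRCm38.p6), and a promoter CRE lies within 500 bp of a protein-coding start. Motifs were searched in the central 300 bp, and 51-base words were counted over the genome (numba 0.67.0). Scripts were tested on simulated data. Replicate numbers did not pair the libraries, with correlations of replicate differences between -0.0674 and 0.0473.

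Named CREs were the 12 largest rises and falls with a mean of at least 50 in the higher group, the 4 largest called per gene list, 6 genes per direction by number of called CREs, the 4 largest per direction in each direct contrast, the first 6 peaks and troughs, and 11 genes always named. For the rises, falls and direct contrasts, both libraries of the higher group also had to lie above both of the lower group. Other list members and the satellite CREs were chosen for naming after their values were seen. The members and lists were chosen with earlier results of these data known. Alternatives were other pseudocounts, thresholds, scalings and library sets, a mean filter, a replicate block and leaving out single libraries. Some members of the lists are not reported here by name.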

Additional observations from a re-analysis of the deposited data

How the results depend on the processing

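For LPS 1 h against UT, counts stayed within 1.5 times of those reported under every alternative, from 6938 higher and 5727 lower with a pseudocount of 20 to 12423 and 10049 at an absolute log2 difference above 0.5. Quantile normalization gave 8649 and 8612, moving the median of all CREs from 0.11 to -0.05, equal totals 9580 and 8236, and leaving out a library 8167 to 9005 and 6029 to 7025. Replicate numbers did not pair the libraries, and a replicate block gave 9864 and 7637 and changed no count by over 1.5 times. With only the 4 libraries compared in the fit, the counts were 8945 and 7297. For 1 h against 30 min, a pseudocount of 20 gave 1785 and 1237, a log2 threshold of 0.5 gave 5064 and 3658, and leaving out a library gave 2104 to 3261 and 1207 to 1967, the lowest without LPS 30 min replicate 2. For 2 h against 1 h the lower count was 1206 with a pseudocount of 20 and 4415 at 0.5. Across inhibitors, where both thresholds gave 4902 and 4399, a pseudocount of 20 gave 3098 higher, and 0.5 gave 12687 and 11537.

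Read over all CREs within 100 kb, list medians were 0.00 (immediate early), 1.5 (NF-kB), 2.05 (cytokines), 0.44 (MAPK feedback), -0.19 (macrophage lineage), -0.49 (lysosome), -0.05 (cell cycle) and 0.30 (ribosomal). After quantile normalization medians were 0.34 (immediate early), 1.37 (NF-kB), 0.47 (MAPK feedback), -0.97 (macrophage lineage) and -0.69 (lysosome), 2 MAPK feedback and 2 TLR4 promoters were lower and 2 ribosomal promoters higher. Of 1519 values of 117 named CREs for LPS 1 h against UT, 1454 kept direction and call and 5, at 3 CREs, turned. Egr1, at -0.02, was 0.03 after quantile normalization and between -0.14 and 0.10 without single libraries. Slfn1 ranged from -0.49 to 0.66 and Msra from -0.27 to 0.03 without single libraries, and none of these 3 was called. Outside this contrast, Gtf3c3 across inhibitors, not called, was -0.17 after quantile normalization against 0.07. The fall near Pdia4 from 30 min to 1 h was -1.46 and not called without LPS 30 min replicate 1. The causes were not tested. Groups of 2 libraries, repeats and uncertain UT depth limit small differences.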

Other observations

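At 21 of the 17522 called CREs the mean over inhibitors had the opposite sign to that in DMSO cells, and 4 with a fall in DMSO cells are given here. Near Gm21860 on chromosome Y the 4 libraries held 68 and 51 scaled reads in UT and 29 and 9 after LPS (-1.55), with 0.46 across inhibitors. Near Gtf3c3 they held 13 and 18, then 3 and 1, in an intron of Ncapd2 14 and 6, then 0 and 1, and near Gm21865, on chromosome Y, 21 and 26, then 0 in both LPS libraries. These levels are low, and their calls were lost under some of the alternatives.

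A CRE in an intron of Mid1 on chromosome X, nearest to Gm21887, held 0 and 34 scaled reads in UT, 0 and 339 at 30 min, 249 and 283 at 1 h and 0 and 188 at 2 h of LPS. Replicates thus disagreed at 30 min and 2 h. Both LPS 1 h libraries lay above both UT libraries (4.28 ± 1.36, adjusted p 0.0102), a difference that was not called. Of the 51-base words in this CRE 0.456% occur a single time in the genome.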
